A study of Homo sapiens with 7 samples.

Results

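Notch signalling was examined through 10 genes: the receptors NOTCH1, NOTCH2 and NOTCH3, the ligands JAG1, JAG2 and DLL1, and the target genes HES1, HES4, HEY1 and NRARP. The genes were taken by symbol from 33117 listed genes, and all 10 were listed. The libraries came from 769-P, an established line of human kidney cancer cells (clear cell renal carcinoma), grown in RPMI medium with fetal bovine serum. There were 3 libraries of PA cells and 4 of latent metastatic (Lat-M) cells, and the labels name no other treatment or genotype and expand PA nowhere. The Lat-M libraries are numbered 1-1, 1-2, 2-1 and 2-2. They were compared as Lat-M1 (2 libraries) and Lat-M2 (2 libraries), although the labels do not state what the first number means, how Lat-M cells were derived, or whether libraries of a group are separate cultures. P-values therefore reflect only how these libraries vary, and that variation may be technical.

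Notch receptors are single-pass membrane proteins that bind ligands of the Jagged and Delta-like families on neighbouring cells. Binding exposes the receptor to ADAM proteases and then to the gamma-secretase complex, which frees the intracellular domain to enter the nucleus. There it joins the DNA-binding protein RBPJ and a Mastermind coactivator and switches on genes of the HES and HEY repressor family and NRARP, a feedback inhibitor that limits the intracellular domain. In the kidney the pathway is known for its part in patterning the nephron, including the proximal tubule from which clear cell carcinoma is thought to arise.

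The promoters of 3 target genes are shown because HES1, HES4 and NRARP differed most from PA among the target genes in Lat-M1; in Lat-M2 HES4 did not. RBPJ is known to bind the letters TGGGAA, so each match to them on either strand is in capitals within the 250 bases before the gene's start (RefSeq, GRCh38.p14, 5′ to 3′ on the gene's strand).
HES1, at chr3:194135898-194136147 on the plus strand: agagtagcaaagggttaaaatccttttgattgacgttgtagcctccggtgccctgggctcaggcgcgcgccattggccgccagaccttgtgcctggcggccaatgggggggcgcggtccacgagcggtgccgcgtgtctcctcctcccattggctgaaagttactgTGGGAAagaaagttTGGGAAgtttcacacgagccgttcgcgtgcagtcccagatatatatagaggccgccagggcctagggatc
HES4, at chr1:1000098-1000347 on the minus strand: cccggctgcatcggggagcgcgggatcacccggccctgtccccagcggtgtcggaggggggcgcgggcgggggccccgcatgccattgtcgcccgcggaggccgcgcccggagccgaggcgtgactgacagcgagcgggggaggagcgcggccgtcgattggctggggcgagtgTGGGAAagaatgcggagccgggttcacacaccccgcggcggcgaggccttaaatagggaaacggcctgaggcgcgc
NRARP, at chr9:137302272-137302521 on the minus strand: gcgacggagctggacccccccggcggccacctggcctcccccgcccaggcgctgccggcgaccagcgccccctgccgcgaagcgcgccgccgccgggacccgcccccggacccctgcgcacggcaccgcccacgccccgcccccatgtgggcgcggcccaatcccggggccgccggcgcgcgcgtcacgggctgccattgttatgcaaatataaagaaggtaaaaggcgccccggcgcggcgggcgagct

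The HES1 promoter held the letters TGGGAA at 2 places, from -84 to -79 and from -70 to -65 counted back from the start. The HES4 promoter held them once, from -76 to -71, and in both genes the match at the more distant or only place extended by a base to GTGGGAA, which contains TGGGAA. The NRARP window held none. Of the 10 genes, 8 had an entry in the promoter table, and none of NOTCH1, NOTCH2, NOTCH3, JAG1 and JAG2 held a match. Across 35116 promoter windows of the same length, 20.8% held TGGGAA on at least 1 strand, 2.9% held it more than once, and 5.43% held GTGGGAA. HES proteins are known to bind the N-box CACNAG and the class C site CACGNG, which overlap where a sequence fits both. HES1 held 3 matches to CACNAG and 4 to CACGNG. At least 1 match was held by 32.0% and 26.7% of all windows, and 2 or more by 6.32% and 10.4%. The HES1 matches from -132 to -127 and from -58 to -53 fit both motifs and are counted under each. NRARP held 1 match to CACGNG, from -65 to -60. Outside the target genes, JAG2 held 2 matches to CACGNG, and NOTCH3 held 1 that fits both motifs. Such matches describe letters and not binding, and no binding was measured here.

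**Figure D1:**
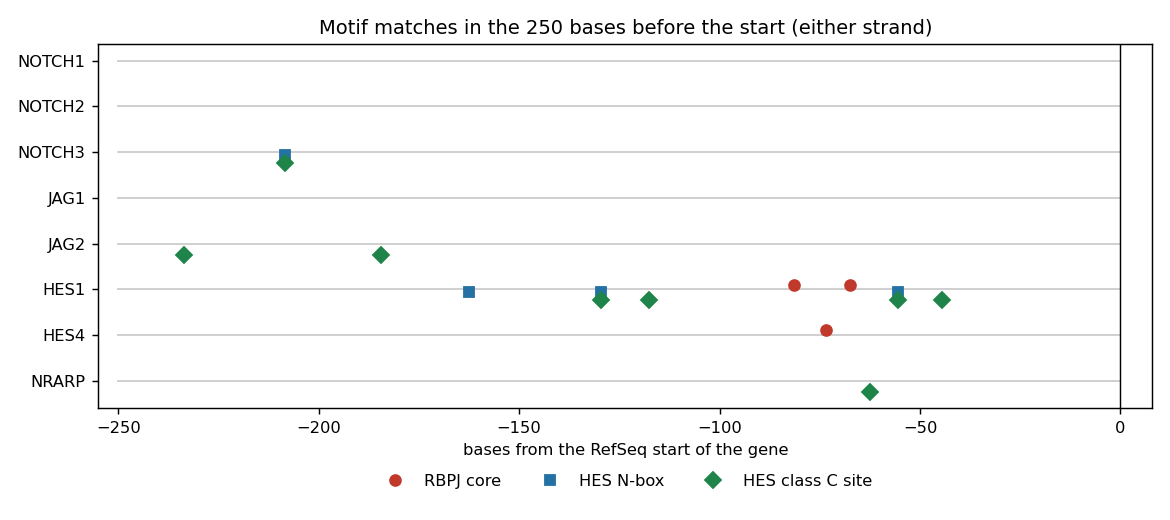
Positions of matches to the RBPJ core (TGGGAA, circles), the N-box (squares) and the class C site (diamonds) on either strand, in bases before the RefSeq start, for the 8 genes with a promoter entry. The RBPJ core is matched at 2 places in HES1 and 1 in HES4, between 84 and 65 bases before the start.

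Expression was read as TPM, a measure of transcript abundance per length, so levels may be compared roughly between genes. TPM sums to the same total in each library, so each value is a share of that total. TPM keeps no read total, and the depth of these libraries is unknown. Log2 fold changes below are of TPM + 1 and understate the change of genes near 0; an error after a log2 fold change is its SE, and one after a mean TPM is the SD over 3 PA, 2 Lat-M1 or 2 Lat-M2 libraries. A gene is called higher or lower where its limma adjusted p over all 16724 tested genes, those with a mean of at least 1 TPM, is under 0.05. Of the 10 genes, 7 were tested, and NOTCH3, DLL1 and NRARP averaged under 1 TPM. The libraries differed in composition: structural RNAs (RN7SL1, RN7SL2, RN7SK and RMRP) held 29.5 to 31.8% of TPM in PA, 18.6 and 21.9% in Lat-M1, and 22.9 and 27.7% in Lat-M2. The median log2 fold change over all tested genes was 0.16 in Lat-M1 and 0.14 in Lat-M2 against PA, and it was 0.0042 and -0.00054 once each library was scaled by its median ratio. Values after that scaling are given where they alter a reading.

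Of 6 markers of renal tubule and clear cell carcinoma, 5 reached 1 TPM in at least 1 library. PAX8, a renal lineage factor, lay between 65.6 and 87.9 TPM, and PAX2, another, only between 0.633 and 1.63 TPM. The keratins KRT8 and KRT18 lay between 88.8 and 206 TPM and between 259 and 441 TPM. VIM, the vimentin gene, lay between 1980 and 2430 TPM. CA9, a hypoxia target typical of clear cell carcinoma, reached only 0.156 TPM. None of 7 listed endothelial markers reached 1 TPM in any library, with CDH5, the endothelial cadherin, listed at 0 in all 7, and none of 4 listed leukocyte markers did. Markers of fibroblasts and pericytes summed to 5.19 to 5.56 TPM in PA, 22.1 and 23.9 TPM in Lat-M1, and 6.91 and 8.87 TPM in Lat-M2. Of these 8 markers 2 reached 1 TPM, RGS5 and COL1A1, a collagen chain at 19.9 TPM in Lat-M1, while DCN and PDGFRA, which define fibroblasts, were at most 0.0364 and 0.0101 TPM.

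NOTCH2 was the most abundant receptor in every library. It stood at 39.6, 39.1 and 42.3 TPM in the PA libraries, at 93.3 and 98.7 TPM in Lat-M1, and at 54.7 and 49.2 TPM in Lat-M2. The groups did not overlap, with Lat-M1 highest and PA lowest. How many of all genes had groups apart was not counted, here or for the genes below. NOTCH2 rose in Lat-M1 by 1.23 ± 0.069 on the log2 scale (limma adjusted p = 1.46e-05) and in Lat-M2 by 0.36 ± 0.069 (limma adjusted p = 0.0194). Lat-M2 was below Lat-M1 by -0.88 ± 0.075 (limma adjusted p = 0.000155). The Lat-M2 call is less secure: it was lost without PA1 (0.0572), without PA2 (0.0591) and without Lat-M2-1 (limma adjusted p = 0.09). NOTCH2NL, a partial copy of NOTCH2 of near-identical sequence, averaged 17.1 ± 1.17 TPM across PA, 23.7 ± 1.7 TPM across Lat-M1 and 19.0 ± 0.566 TPM across Lat-M2. How reads were divided between the copy and NOTCH2 is not stated, so the level of either is uncertain to that extent. The ratio of NOTCH2NL to NOTCH2 averaged 0.424 ± 0.0145 across PA, 0.247 ± 0.00801 across Lat-M1 and 0.367 ± 0.0386 across Lat-M2.

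NOTCH1, the receptor best known from leukaemia, stood at 14.8, 22.8 and 21.3 TPM in PA, at 23.6 and 25.4 TPM in Lat-M1, and at 25.1 and 21.7 TPM in Lat-M2. PA1 was the lowest of the 7 libraries, Lat-M1 lay above PA, and Lat-M2 overlapped both. NOTCH1 was not called in either pair against PA, with log2 fold changes of 0.33 ± 0.18 in Lat-M1 (limma adjusted p = 0.189) and 0.26 ± 0.18 in Lat-M2 (limma adjusted p = 0.365). NOTCH3, the receptor of vascular smooth muscle and pericytes, was near 0: it was listed at 0.0117, 0 and 0 TPM in PA, at 0.0214 and 0.0779 TPM in Lat-M1, and at 0 in both Lat-M2 libraries. NOTCH4, the endothelial receptor, was at most 0.121 TPM. NOTCH1, NOTCH2 and NOTCH3 together averaged 60.0 ± 4.89 TPM across PA, 121 ± 5.1 TPM across Lat-M1 and 75.3 ± 6.32 TPM across Lat-M2. NOTCH2 made up 67.5 ± 4.93% of that sum across PA, 79.6 ± 0.223% across Lat-M1 and 69.0 ± 0.594% across Lat-M2.

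**Figure D2:**
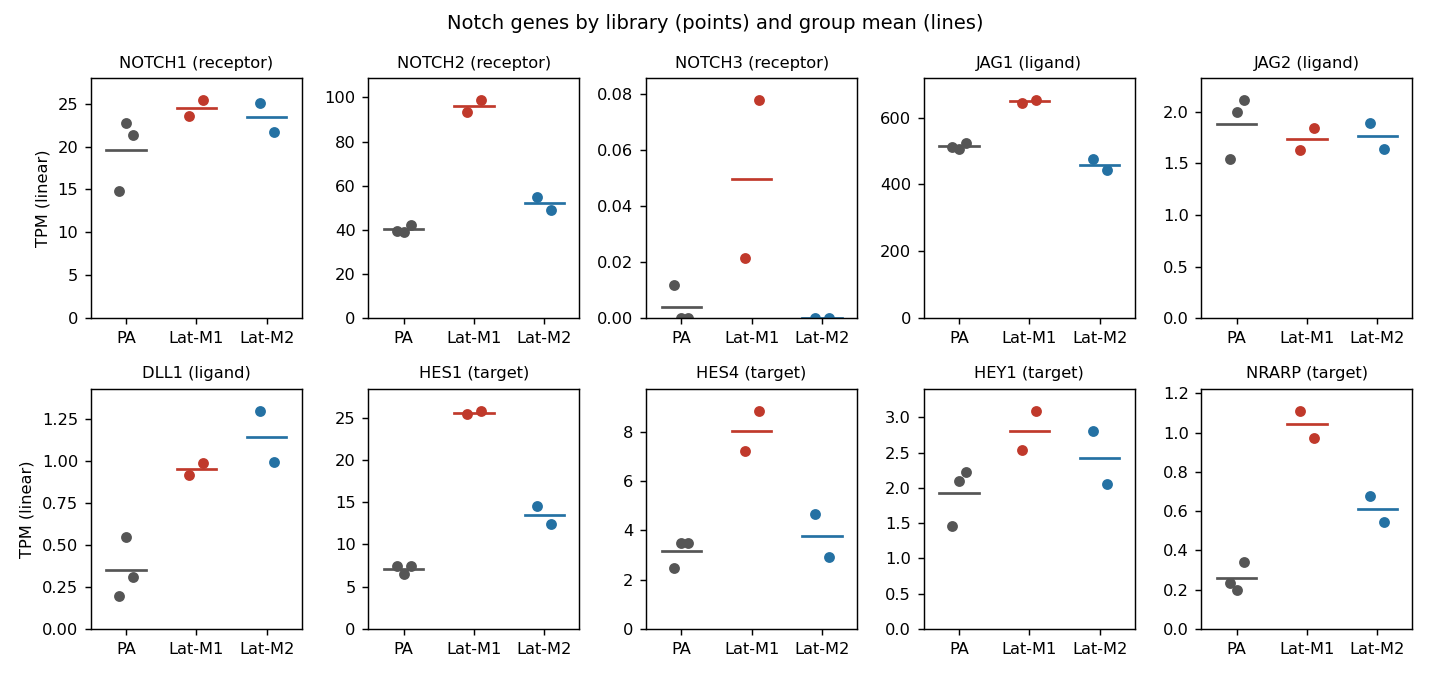
TPM of the 10 Notch genes in each library (points) on linear axes that start at 0, with lines at the group means, for PA (3 libraries), Lat-M1 (2) and Lat-M2 (2). NOTCH2 and HES1 lie highest in Lat-M1, in between in Lat-M2 and lowest in PA, with no overlap, while JAG1 is lowest in Lat-M2.

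JAG1 was by far the most abundant of the 10 genes and ranked between 124 and 193 among all listed genes of a library. It stood at 511, 506 and 524 TPM in PA, at 645 and 652 TPM in Lat-M1, and at 475 and 442 TPM in Lat-M2. The groups did not overlap, with Lat-M1 above PA and Lat-M2 below it. JAG1 rose in Lat-M1 by 0.34 ± 0.053 on the log2 scale (limma adjusted p = 0.00197), which scaling reduced to 0.16 (scaled limma adjusted p = 0.00985). In Lat-M2 it was -0.16 ± 0.053 against PA and not called (limma adjusted p = 0.0788), but after scaling it was called lower, at -0.32 (scaled limma adjusted p = 0.00304). Lat-M2 was below Lat-M1 by -0.50 ± 0.058 (limma adjusted p = 0.000645). A second identifier also carries the symbol JAG1, averaging 382 ± 11.6 TPM across PA, 477 ± 6.73 TPM across Lat-M1 and 328 ± 6.95 TPM across Lat-M2, or 0.7 to 0.754 of the first in all 7 libraries. The first identifier, with the higher mean, is the one used here. How reads were shared between these entries is not stated, so the absolute level of JAG1 is uncertain. The second entry was called in both pairs, higher in Lat-M1 by 0.32 ± 0.051 and lower in Lat-M2 by -0.22 ± 0.051 (limma adjusted p = 0.00211 and 0.0322).

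JAG2 and DLL1 were minor ligands beside JAG1. JAG2, a second Jagged ligand, stood at 1.54, 2.0 and 2.11 TPM in PA, at 1.63 and 1.84 TPM in Lat-M1, and at 1.89 and 1.64 TPM in Lat-M2. Its 3 groups overlapped, and it was not called in Lat-M1 (-0.072 ± 0.15 on the log2 scale, limma adjusted p = 0.733) or in Lat-M2 (-0.057 ± 0.15, limma adjusted p = 0.823). The ratio of JAG1 to JAG2 lay between 248 and 395. DLL1, a Delta-like ligand, stood at 0.194, 0.548 and 0.308 TPM in PA, at 0.92 and 0.987 TPM in Lat-M1, and at 1.3 and 0.993 TPM in Lat-M2. All 4 Lat-M libraries lay above the 3 PA libraries. Lat-M2 lay above Lat-M1 only narrowly, with 0.993 TPM as its lower value against 0.987 TPM. Fitted without the filter, Lat-M2 was not called against Lat-M1 (0.13 ± 0.165, limma adjusted p = 0.648). With no filter on low values, DLL1 was called higher in Lat-M1 at the edge of the threshold (log2 fold change 0.54 ± 0.15, limma adjusted p = 0.0496) and not in Lat-M2 (0.67 ± 0.15, limma adjusted p = 0.0676). That fit called 17.8% of 32367 genes higher in Lat-M1 and 3.86% in Lat-M2. The other Delta-like ligands were lower still, with DLL3, an inhibitory family member, at 0.252 to 0.645 TPM, and DLL4, the endothelial ligand, listed at 0 in PA and at no more than 0.0623 TPM in Lat-M.

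HES1, a transcriptional repressor and the classical Notch target, showed the largest difference from PA of the 7 tested genes, in Lat-M1 and in Lat-M2. It stood at 7.48, 6.46 and 7.42 TPM in PA, at 25.4 and 25.8 TPM in Lat-M1, and at 14.6 and 12.4 TPM in Lat-M2. The groups did not overlap and kept the order of NOTCH2, with Lat-M1 highest and PA lowest. HES1 rose by 1.72 ± 0.092 on the log2 scale in Lat-M1 (limma adjusted p = 1.18e-05) and by 0.84 ± 0.092 in Lat-M2 (limma adjusted p = 0.00265). The difference between Lat-M2 and Lat-M1 was -0.88 ± 0.10 (limma adjusted p = 0.000585). After scaling the rises were 1.55 and 0.70.

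HES4, a close relative of HES1 found in humans but not in mice, stood at 2.48, 3.5 and 3.5 TPM in PA, at 7.24 and 8.85 TPM in Lat-M1, and at 4.67 and 2.91 TPM in Lat-M2. Both Lat-M1 libraries lay above all others, and the Lat-M2 libraries partly overlapped PA, with Lat-M2-1 above it and Lat-M2-2 within it. HES4 rose in Lat-M1 by 1.12 ± 0.20 (limma adjusted p = 0.003) and was not called in Lat-M2 (0.19 ± 0.20, limma adjusted p = 0.537). Lat-M2 was below Lat-M1 by -0.94 ± 0.21 (limma adjusted p = 0.0130), a call lost without Lat-M1-2 (0.0797) or without Lat-M2-2 (limma adjusted p = 0.0647).

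HEY1, a HES-related repressor, stood at 1.46, 2.1 and 2.23 TPM in PA, at 2.53 and 3.09 TPM in Lat-M1, and at 2.8 and 2.05 TPM in Lat-M2. Lat-M1 lay above PA and Lat-M2 overlapped both, and the gene was not called in Lat-M1 (0.39 ± 0.18, limma adjusted p = 0.119) or in Lat-M2 (0.23 ± 0.18, limma adjusted p = 0.413). NRARP, the feedback inhibitor, stood at 0.235, 0.199 and 0.339 TPM in PA, at 1.11 and 0.972 TPM in Lat-M1, and at 0.676 and 0.543 TPM in Lat-M2. Its groups did not overlap, with Lat-M1 highest and PA lowest, the order seen for NOTCH2 and HES1. The share of all genes with groups apart in this order was not counted. NRARP averaged 4.04 times its PA level in Lat-M1 and 2.36 times in Lat-M2, at levels so low that TPM + 1 compresses the change. With no filter on low values it was called higher in Lat-M1 (0.70 ± 0.11, limma adjusted p = 0.00664) and not in Lat-M2 (0.36 ± 0.11, limma adjusted p = 0.139).

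In Lat-M1 against PA, 4 of the 7 tested Notch genes were called higher (NOTCH2, JAG1, HES1 and HES4) and none lower, where 33.2% of all tested genes were called higher and 11.6% lower. Their median log2 fold change was 0.39, beside 0.16 over all genes. After scaling the same 4 were called higher, beside 24.0% of all genes higher and 23.0% lower. In Lat-M2 against PA, 2 of 7 were called higher (NOTCH2 and HES1) and none lower, where 12.7% of all tested genes were called higher and 2.24% lower. Their median was 0.23, beside 0.14 over all genes. After scaling 2 were higher and 1, JAG1, lower, beside 7.47% and 8.41% of all genes. Lat-M1 and Lat-M2 were set against the same PA libraries, so these counts are not independent. The Notch genes were chosen with earlier results of these data known, so the counts describe these genes and do not test the pathway.

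Lat-M2 against Lat-M1 called 4 of 7 lower (NOTCH2, JAG1, HES1 and HES4) and none higher, with 20.1% of all tested genes lower and 16.0% higher (22.6% and 21.6% after scaling, with the same count of Notch genes). With all 4 Lat-M libraries as 1 group against PA, limma called none of the 7, and 2 had an unadjusted p under 0.05. That fit called 2.51% of all tested genes higher and 0.389% lower, and in it the gap between Lat-M1 and Lat-M2 counts as spread. HES1 came nearest (1.28 ± 0.26, limma adjusted p = 0.0531), followed by NOTCH2 (0.79 ± 0.26, limma adjusted p = 0.123). For both genes all 4 Lat-M values lay above all 3 PA values. HES1 was called when genes under a mean of 5 TPM were left out (limma adjusted p = 0.0448), and without Lat-M2-2 both were called (limma adjusted p = 0.0263 for HES1 and 0.0464 for NOTCH2). Over all alternatives to that fit, the adjusted p of HES1 reached 0.374, with the last number as a block. In the fit of 3 groups the mean of Lat-M1 and Lat-M2 differed from PA for HES1, NOTCH2 and HES4 (limma adjusted p = 4.61e-05, 0.000111 and 0.0186). The spread of that fit leaves out the gap between Lat-M1 and Lat-M2. For HES4 such a difference in the mean is not a shared change, as Lat-M2 itself was not called against PA (0.19 ± 0.20, limma adjusted p = 0.537).

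**Figure D3:**
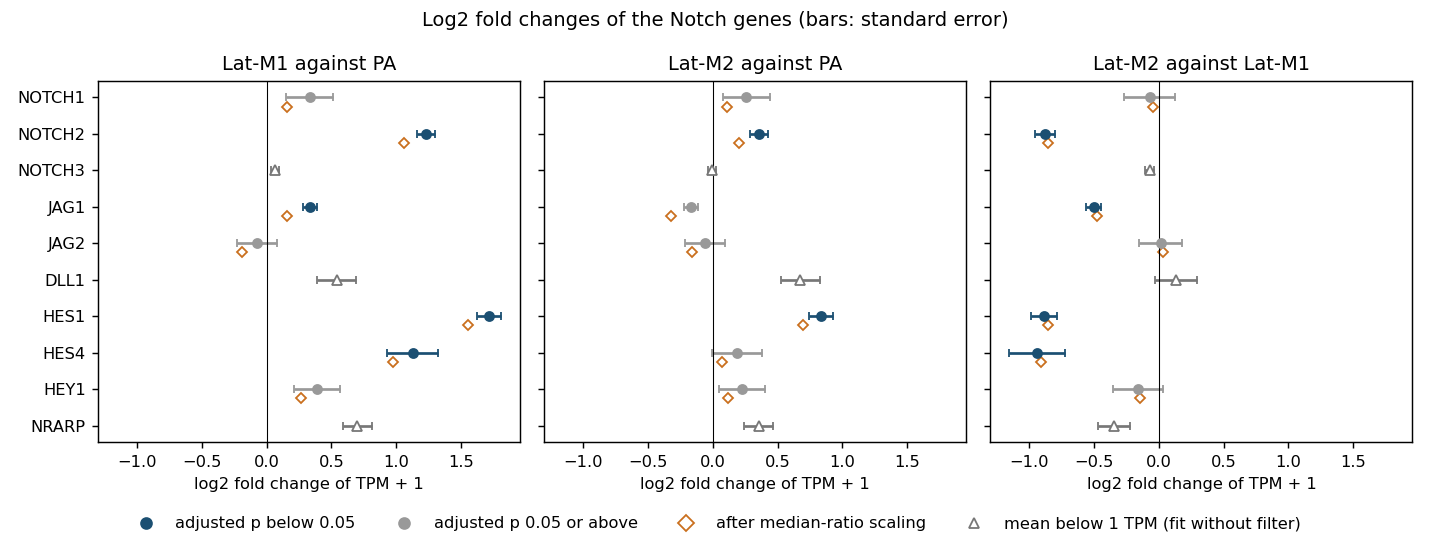
Log2 fold changes of TPM + 1 with standard errors for the 10 Notch genes in 3 comparisons. Filled points are the tested genes, diamonds the values after median-ratio scaling, and triangles the 3 genes under a mean of 1 TPM. HES1 and NOTCH2 are called in all 3 panels, and JAG1 lies on opposite sides of 0 in Lat-M1 and Lat-M2.

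The wider pathway was read from a list of 89 other Notch genes, of which 84 were listed and 65 tested. The list was chosen with earlier results of these data known, so counts from it describe the list and do not test the pathway. The shares of all tested genes called, given above, are the background to these counts and to those by role: 33.2% higher and 11.6% lower for Lat-M1, 12.7% higher and 2.24% lower for Lat-M2, 16.0% and 20.1% for Lat-M2 against Lat-M1, and 2.51% and 0.389% for Lat-M as a whole. Some counts by role lie near it, such as the 3 of 8 receptor cleavage genes higher in Lat-M1. In Lat-M1 against PA 37 of the 65 were called higher and 5 lower, with a median log2 fold change of 0.33 beside 0.16 over all genes (31 higher and 11 lower after scaling, median 0.18 beside 0.0042). In Lat-M2 against PA 17 were higher and 4 lower, with a median of 0.13 beside 0.14 (12 and 9 after scaling, median -0.017). The Lat-M2 count fell to 2 without Lat-M2-1, and to 10, 12 and 11 without PA1, PA2 and PA3, so it rests on few libraries. Lat-M2 against Lat-M1 had 5 higher and 21 lower (11 and 27 after scaling). Lat-M as a whole against PA had 5 higher, GXYLT1, SPEN, TLE4, C12orf52 and MYC, and none lower, and limma called none of these after scaling.

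Enzymes that add sugars to the receptor had 5 of 8 tested members higher in Lat-M1 (4 after scaling) and none lower. GXYLT2, a xylosyltransferase that extends O-glucose on Notch repeats, rose from 11.2, 13.0 and 11.8 TPM in the PA libraries to 125 ± 8.12 TPM in Lat-M1 and 24.2 ± 3.46 TPM in Lat-M2, by 3.28 ± 0.10 and 0.95 ± 0.10 on the log2 scale. Its relative GXYLT1 rose too, by 0.68 ± 0.068 in Lat-M1 and 0.45 ± 0.068 in Lat-M2. LFNG, the Fringe enzyme that alters which ligands a receptor answers to, rose from 72.3 ± 9.54 to 111 ± 8.76 TPM in Lat-M1 (0.62 ± 0.12, limma adjusted p = 0.00449) and stood at 70.7 ± 5.41 TPM in Lat-M2 (limma adjusted p = 0.898). The other Fringe enzymes were not called in Lat-M1, MFNG at 8.40 TPM in PA and 8.86 TPM in Lat-M1 and RFNG at 4.89 and 6.10 TPM.

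Genes of receptor cleavage, proteases and subunits of their complexes, had 3 of 8 higher and 1 lower in Lat-M1 (3 and 4 after scaling). In Lat-M2 they had 3 higher and none lower (1 and 2 after scaling). FURIN, which makes the first cut of the receptor in the Golgi, rose from 28.3 ± 3.37 TPM in PA to 119 ± 5.56 TPM in Lat-M1 (2.04 ± 0.11) and to 37.4 ± 3.33 TPM in Lat-M2 (0.39 ± 0.11, limma adjusted p = 0.0486), a call that scaling ended (0.25, scaled limma adjusted p = 0.13). ADAM17 rose in Lat-M1 (0.53 ± 0.059), and ADAM10, the main protease of ligand-bound Notch, rose in Lat-M1 (0.31 ± 0.066) and in Lat-M2 (0.35 ± 0.066). The gamma-secretase gene PSEN2 was the single fall in Lat-M1 (-0.36 ± 0.077), and NCSTN, another subunit, rose in Lat-M2 by 0.23 ± 0.052, a call that scaling ended (scaled limma adjusted p = 0.224).

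The nuclear complex and its coactivators had 7 of 8 higher in Lat-M1 and none lower (6 and 1 after scaling). RBPJ rose from 22.5 ± 1.71 to 33.8 ± 1.23 TPM (0.57 ± 0.078, limma adjusted p = 0.00102) and stood at 26.8 ± 1.55 TPM in Lat-M2 (0.25 ± 0.078, limma adjusted p = 0.0739). MAML1, a Mastermind coactivator, rose in Lat-M1 (0.82 ± 0.084) and in Lat-M2 (0.46 ± 0.084). MAML2 went opposite ways, from 3.49 ± 0.273 TPM in PA to 8.08 ± 0.311 TPM in Lat-M1 (1.02 ± 0.10) and 1.97 ± 0.114 TPM in Lat-M2 (-0.60 ± 0.10). Corepressors had 9 of 15 higher and 2 lower in Lat-M1 (7 and 3 after scaling), and 7 higher and none lower in Lat-M2 (5 and 2 after scaling). Among them TLE3, a Groucho corepressor that HES proteins recruit, rose from 1.24 ± 0.076 to 7.32 ± 0.628 TPM in Lat-M1 (1.89 ± 0.12), and BEND6, which binds RBPJ, from 2.28 ± 0.143 to 6.52 ± 0.17 TPM (1.20 ± 0.10). TLE1, a more abundant Groucho gene, fell in Lat-M1 from 61.4 ± 2.08 to 32.0 ± 1.32 TPM (-0.92 ± 0.089, limma adjusted p = 0.000206). In Lat-M2 TLE1 stood at 55.1 ± 7.87 TPM and was not called (limma adjusted p = 0.257), but after scaling it was called lower (-0.31, scaled limma adjusted p = 0.0145). SPEN, which RBPJ uses for repression, and TLE4 rose in Lat-M2 by 0.50 ± 0.092 and 0.49 ± 0.087.

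**Figure D4:**
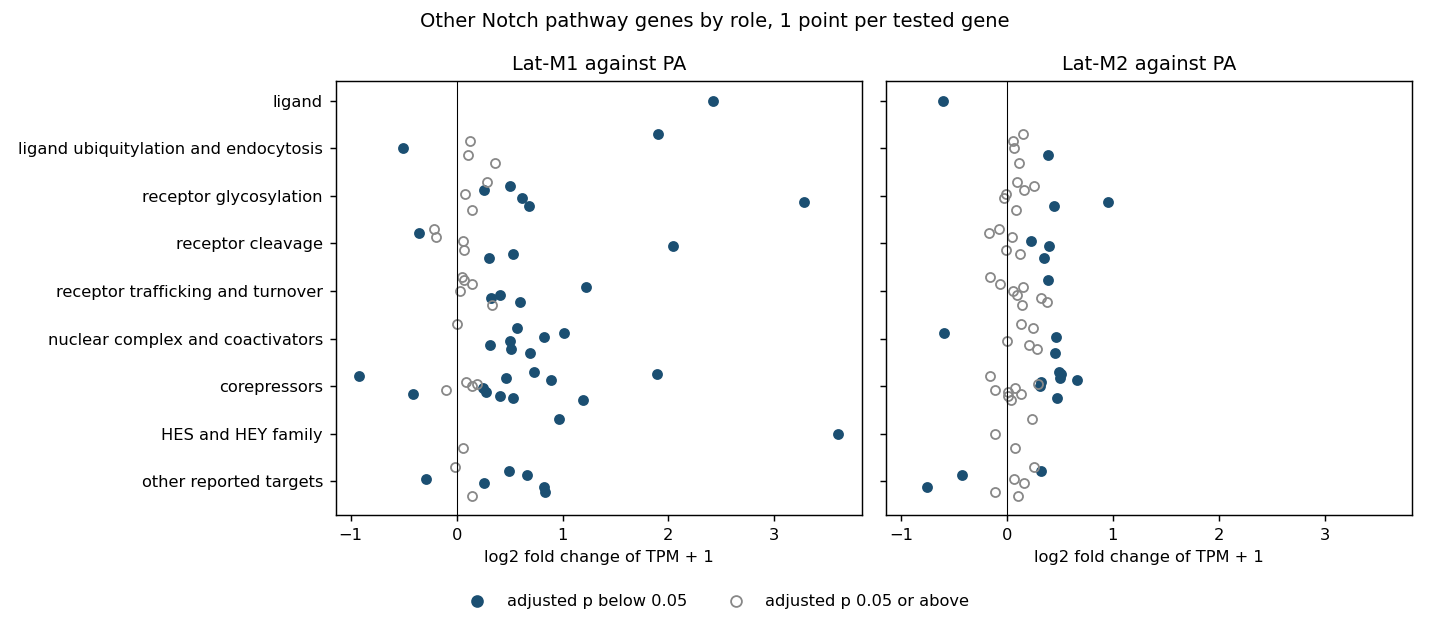
Log2 fold changes of TPM + 1 of the 65 other tested Notch pathway genes, 1 point per gene, by role, in Lat-M1 and Lat-M2 against PA. Filled points have an adjusted p under 0.05. In Lat-M1 7 of 8 genes of the nuclear complex are called higher, and in Lat-M2 2 of the 8 are; the values are unscaled.

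Ligand handling, receptor turnover and further targets were mixed. NEURL1B, a ubiquitin ligase of ligands, rose in Lat-M1 from 0.748 ± 0.0799 to 5.52 ± 0.154 TPM (1.90 ± 0.14), while MIB1, the main ligase of Jagged and Delta-like ligands, fell from 122 ± 4.27 to 85.7 ± 1.56 TPM (-0.50 ± 0.072). EPN2, an endocytic adaptor, rose in Lat-M2 by 0.39 ± 0.095, a call that scaling ended (scaled limma adjusted p = 0.102). CNTN1, a contactin reported as a non-canonical ligand, rose to 12.8 ± 0.147 TPM in Lat-M1 from 1.57 ± 0.146 TPM and fell to 0.686 ± 0.126 TPM in Lat-M2. Receptor turnover genes had 4 of 9 higher in Lat-M1 (3 after scaling), among them the ubiquitin ligase NEDD4 (1.23 ± 0.076) and FBXW7, which marks the intracellular domain for degradation (0.41 ± 0.093), and 1 in Lat-M2, the Notch antagonist NUMB (0.39 ± 0.067). DTX1, a ubiquitin ligase and Notch target of lymphocytes, was listed at 0 in PA and Lat-M2.

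In the HES and HEY family beyond the 4 target genes, 3 of 9 were tested and 2 of these rose in Lat-M1, while BHLHE40, the remaining one, was called lower after scaling alone (-0.12, scaled limma adjusted p = 0.0166). HES6 went from 4.87 ± 0.345 to 10.5 ± 1.36 TPM (0.97 ± 0.14), and BHLHE41, a related repressor that is not a classical Notch target, from 2.29 ± 0.298 to 39.0 ± 4.13 TPM (3.60 ± 0.11). None of the 3 was called by limma in Lat-M2, before or after scaling. HEY2 and HEYL, the other HEY genes, were at most 0.0687 and 0.0263 TPM. Other reported targets had 5 of 8 higher and 1 lower in Lat-M1 (4 and 1 after scaling), and 1 higher and 2 lower in Lat-M2 (1 and 3 after scaling). The cell cycle gene CCND1 rose in Lat-M1 from 221 ± 4.5 to 396 ± 18.0 TPM (0.84 ± 0.084). In Lat-M2 CCND1 was not called (-0.12 ± 0.084, limma adjusted p = 0.367), but after scaling it was called lower (-0.27, scaled limma adjusted p = 0.0159). CDKN1A, a cell cycle inhibitor, rose from 187 ± 2.95 to 332 ± 16.0 TPM in Lat-M1 (0.82 ± 0.062) and fell to 111 ± 7.63 TPM in Lat-M2 (-0.75 ± 0.062). ID3, an inhibitor of bHLH factors, also went opposite ways. It fell in Lat-M2 from 11.8 ± 0.394 to 8.52 ± 0.0375 TPM (-0.42 ± 0.082) and rose in Lat-M1 to 19.2 ± 2.24 TPM (0.66 ± 0.082, limma adjusted p = 0.000633).

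The genes nearest in pattern to each of the 3 Notch genes that changed by at least 1 on the log2 scale were sought among the 11444 genes averaging 5 TPM or more. The measure was the root mean square difference of log2(TPM + 1), taken from each gene's PA mean, over the 7 libraries, and it is a description. For NOTCH2 these were TLR6 (0.0456), TUFT1 (0.0534) and C3 (0.0587). For HES1 they were GPC6 (0.0774), PKIG (0.0872) and TANC2 (0.094), and for HES4 they were CLTB (0.0827), MVD (0.108) and COL6A1 (0.114). GPC6, a glypican, averaged 2.94 TPM across PA, 12.9 TPM across Lat-M1 and 5.84 TPM across Lat-M2. In Lat-M1 the structural RNA share was lower than in PA, and the fibroblast and pericyte sum was higher. Of the 2 fibroblast and pericyte markers that reached 1 TPM, COL1A1 averaged 1.19 TPM across PA and 19.9 TPM across Lat-M1. The other, RGS5, went the opposite way, averaging 3.71 and 2.02 TPM. The median log2 fold change of all genes against PA was 0.16 in Lat-M1 and 0.14 in Lat-M2. The part of the fibroblast and pericyte sum in the differences of the Notch genes was not tested. Without the 4 structural RNAs, the log2 fold changes in Lat-M1 were 1.04 for NOTCH2, 0.14 for JAG1, 1.56 for HES1 and 1.00 for HES4, all called by limma. In Lat-M2 they were 0.25 for NOTCH2 and 0.76 for HES1, both called higher, and -0.27 for JAG1, then called lower (limma adjusted p = 0.00554).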

How the data were processed

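RNA sequencing was done on 7 libraries of 769-P cells. Per the labels' protocols, total RNA was extracted with a column kit and libraries were made with 1 of 2 kits, while the kit of each library is not given in the sources used here. TopHat2 2.2.4 and the build hg19 are listed in the submitters' processing notes. The deposited values were taken as TPM per gene because every file adds up to 1e+06; the authors' quantifier and annotation are not given in the sources used here.

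For each symbol the identifier with the highest mean was used, and only JAG1 among the members had more than 1. Values were taken as log2(TPM + 1), filtered at a mean of 1 TPM and fitted with limma 3.58.1 (R 4.3.3) using its trend and robust options; p-values were adjusted by Benjamini-Hochberg over all 16724 tested genes. PA, Lat-M1 and Lat-M2 shared 1 estimate of spread; Lat-M against PA was a fit of 2 groups. The fit was tested on simulated data. The members and lists were chosen with earlier results of these data known. All 10 members were named whatever their result, and, of the other pathway genes, the 2 called with the smallest p per role and comparison and 11 genes whatever their result (HES5, among them, was not analysed here); PSEN2, TLE1 and BHLHE40 were chosen after their values were seen. Deviations of libraries with the same last number correlated at -0.082 to 0.0312, so no shared shift was visible. In groups of 2 libraries the deviations mirror each other, so these values cannot show whether the numbers pair libraries. The main fit did not use the last number. Promoter letters came from RefSeq tables (GRCh38.p14), another build than the submitters', so no other positions are given.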

Additional observations from a re-analysis of the deposited data

Results flagged for a closer look

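The effects of Lat-M1 and Lat-M2 against PA differed for 4 Notch genes by the test of the difference itself, which is Lat-M2 against Lat-M1 in the fit of 3 groups. Such differences were common, as that comparison called 20.1% of all tested genes lower and 16.0% higher. The Lat-M2 effect was below the Lat-M1 effect by -0.876 on the log2 scale for NOTCH2, -0.5005 for JAG1, -0.8817 for HES1 and -0.9364 for HES4.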

How the results depend on the processing

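All values here are numbers of genes called by limma. No direction of a called Notch gene was reversed under any alternative run. For Lat-M1 against PA the 4 Notch genes called stayed 4 without each library in turn, the pathway genes 31 to 40, and all genes 4679 (without Lat-M1-2) to 6617. For Lat-M2 against PA the corresponding ranges were 1 to 2, 2 to 21 and 492 to 3162, and for Lat-M2 against Lat-M1 3 to 4, 18 to 31 and 3815 to 5400. For Lat-M against PA they were 0 to 2, 0 to 15 and 18 to 1861, the highest without Lat-M2-2. With no filter, all genes called were 1529 for Lat-M2 against PA and 107 for Lat-M against PA (pathway 0). For Lat-M against PA, a minimum mean of 5 TPM gave 1 Notch gene and 9 pathway genes, median-ratio scaling 0 pathway genes and 209 in all, leaving out the 4 structural RNAs 0 and 180, limma without trend and robust options 2 pathway genes, and the contrast in the fit of 3 groups 3 Notch genes, 38 pathway genes and 6106 in all. With the last number as a replicate block, Lat-M2 against PA had 1 Notch gene (HES1; NOTCH2 at a limma adjusted p = 0.058), 6 pathway genes and 943 in all, and Lat-M against PA had 0 pathway genes (12 at an unadjusted p under 0.05) and 0 in all (2060). The block changed no other call of a Notch gene. The causes of these moves were not tested. A lone library left in a group was assumed to vary like the other groups. After scaling, all genes called higher and lower were 4013 and 3840 for Lat-M1 and 1249 and 1407 for Lat-M2 against PA, beside 5558 and 1941, and 2119 and 375. TPM keeps no depth, so counting error and detection limits are unknown.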
